A study of Homo sapiens with 15 samples.

Results

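A set of 10 genes tied to FOXO transcription factors and to the resting state of cells, out of 61533 gene identifiers in the count table, was followed through 5 groups of HEK293T cells. They are the FOXO factors FOXO1, FOXO3 and FOXO4, the genes IRS2, CCNG2 and CDKN1B that FOXO factors are known to switch on, and YPEL3, YPEL5, HBP1 and PBXIP1. They were chosen from the response to rapamycin in the cells called no-mCherry below, so their values in that comparison are a description and carry no test. All 10 passed the filter on low counts, which left 18391 genes.

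FOXO factors are forkhead DNA-binding proteins that sit downstream of insulin and growth factor signalling. The kinase AKT phosphorylates them and keeps them out of the nucleus, and when this input falls they enter the nucleus and raise genes that slow the cell cycle, trim growth and feed back on insulin signalling. Rapamycin, bound to its receptor FKBP12, inhibits the kinase complex mTORC1, which drives growth in response to nutrients and to AKT.

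HEK293T is a human embryonic kidney line. SPARK-OFF cells carry the fusion YAP-MAML2, which joins part of the Hippo pathway coactivator YAP1 to part of the Notch coactivator MAML2, linked to FKBP and a green fluorescent protein, together with nuclear mCherry linked to Frb, the mTOR fragment that binds FKBP through rapamycin. Rapamycin brings mCherry to the fusion, and in the study this dissolved its condensates. No-mCherry cells carry the fusion control without mCherry, so they receive rapamycin without that step. Both lines received DMSO or rapamycin for 5 h, and HEK293T cells expressing eGFP and no fusion were mock-treated, with no duration given. The eGFP cells therefore differ from each other group by vehicle or drug as well as by the fusion. Each of the 5 groups had 3 libraries of polyA RNA, and nothing in the labels says whether these were separate cultures, so the tests measure only the spread between libraries, which may be technical. For the no-mCherry DMSO libraries the description field names rapamycin while title and treatment name DMSO, and the last pair was followed.

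Library totals ran from 14720387 to 24797509 counts. MAML2, part of the fusion, averaged 3.63 CPM (counts relative to the TMM-scaled size of each library) in eGFP cells, 220 and 243 in no-mCherry cells with DMSO and rapamycin, and 415 and 540 in SPARK-OFF cells, so amount of fusion transcript and cell line cannot be told apart. Of 7 HEK293 markers all were detected in every library, with KRT8 at 32.8 CPM in eGFP cells and 838 in SPARK-OFF DMSO cells. PAX2 was the lowest of them, at 1.64 to 5.31 CPM. The leukocyte, endothelial and liver markers PTPRC, PECAM1 and ALB stayed at or under 0.462 CPM, and the fibroblast marker DCN at or under 1.06. The muscle marker MYOD1, at 0.878 to 3.59 CPM, was also detected in every library, and its range overlapped that of PAX2. Replicate 3 of the no-mCherry DMSO group stood apart. Its scaling factor of 0.901 was the lowest of the 15 libraries, and its differences from its group mates were the widest of any pair in the series (chi-square per degree of freedom of 20.16 and 29.62, against 3.3 to 17.17 elsewhere). The rapamycin responses of single genes in no-mCherry cells are therefore given with and without it.

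Promoter sequence was examined because FOXO factors bind a known forkhead core, GTAAACA, and a related insulin response element, CAAAACA. In RefSeq promoter windows on GRCh38.p14, which run from 250 bases before to 50 bases after a gene's start, all 10 genes had a window and 14 windows were found. Both strings of letters were searched on both strands. The forkhead core was present in 3 of the 10 genes (HBP1, YPEL3 and FOXO4), beside 4.19% of all 27305 genes in the table. The insulin response element was present in 1 of the 10 genes (IRS2), beside 6.05% of all genes, and overlapped the forkhead core in 4 windows of the whole table. The 4 matches are shown with 11 flanking bases on each side and the motif in capitals, read along the strand of the gene.
HBP1, chr7:107168819-107168847, plus strand: catcttctccaGTAAACAcaacacaaaag
YPEL3, chr16:30096196-30096224, minus strand: ctgggctcggtGTAAACAagtccaggcgc
FOXO4, chrX:71095863-71095891, plus strand: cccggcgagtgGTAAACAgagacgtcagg
IRS2, chr13:109786606-109786634, minus strand: gagtcacatgtTGTTTTGctcttcttagt

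Counted from the RefSeq start, the first base of the motif lay at -173 in HBP1, at -40 in IRS2, where it is the reverse complement of the insulin response element, at 0 in YPEL3 and at 23 in FOXO4. These matches are letters in a window and are not sites shown to be bound. The upstream stretches of HBP1 and PBXIP1 are shown because both genes had large responses to rapamycin in no-mCherry cells, and 1 of the pair holds the forkhead core (in capitals) while the other holds neither motif. Each ends at the base before the gene's annotated start. No binding data were part of the series.
HBP1, chr7:107168753-107168960, plus strand: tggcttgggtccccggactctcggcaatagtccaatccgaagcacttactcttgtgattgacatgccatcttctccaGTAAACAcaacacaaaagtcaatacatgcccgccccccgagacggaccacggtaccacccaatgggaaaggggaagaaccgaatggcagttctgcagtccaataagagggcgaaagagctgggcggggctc
PBXIP1, chr1:154956124-154956349, minus strand: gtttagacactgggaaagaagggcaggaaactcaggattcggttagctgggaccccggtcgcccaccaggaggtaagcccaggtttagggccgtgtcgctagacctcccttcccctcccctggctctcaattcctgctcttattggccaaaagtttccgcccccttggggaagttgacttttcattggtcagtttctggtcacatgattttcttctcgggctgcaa

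In no-mCherry cells, rapamycin went with higher levels of PBXIP1, YPEL3 and HBP1, by 1.57-fold to 1.78-fold, and with smaller differences in the other 7 genes. All 10 fold changes were above 0, with a median log2 value of 0.31 beside -0.000878 over all genes tested, which is what the choice of these genes used. In 5 of the 10 genes every rapamycin library lay above every DMSO library, beside 10% of all genes, and in 0 of the 10 every one lay below, beside 9.42%. Over the whole table, 0.451% of all genes were called higher in this comparison and 1.17% lower. Nothing is read from these counts, since the same libraries chose the genes. In RNA from whole cultures, a change in all cells and a change in a share of cells cannot be told apart, nor can fewer cells of a kind and less RNA per cell.

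PBXIP1 (chromosome 1, 154944076 to 154956123 on hg38), which encodes a protein that binds the PBX homeodomain factors, had the largest response. Its levels were 27.6, 24.7 and 26.8 CPM with DMSO and 45.7, 47.6 and 47.5 CPM with rapamycin. The groups were far apart and each was tight, and the log2 fold change was 0.83 ± 0.09 (SE), or 0.85 without DMSO replicate 3. Of the 18391 genes, 589 had a higher log2 fold change.

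YPEL3 (chromosome 16, 30092314 to 30096915) encodes a small zinc-binding protein of the yippee family that is known to restrain growth. Its levels were 35.8, 28.7 and 24.7 CPM with DMSO and 53.3, 46.9 and 43.8 CPM with rapamycin. The lowest rapamycin library lay above the highest DMSO library, with a log2 fold change of 0.69 ± 0.13, or 0.58 without DMSO replicate 3, which was the lowest of its group. YPEL3 shares 300 bases with the antisense-strand gene YPEL3-DT, and the strand setting of the counting is not given in the sources used here. YPEL3-DT averaged between 0.643 and 1.73 CPM in the 5 groups.

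HBP1 (chromosome 7, 107168961 to 107202522) encodes an HMG-box repressor that slows entry into S phase. Its levels were 27.4, 21.8 and 36.1 CPM with DMSO and 39.2, 45.3 and 49.3 CPM with rapamycin. Here DMSO replicate 3 was the highest of its group, and the groups still did not overlap. The log2 fold change was 0.65 ± 0.13 with that library and 0.87 without it. HBP1 shares 1142 bases with COG5 on the opposite strand, and the strand setting of the counting is not given in the sources used here, so reads in that stretch may not have been told apart.

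YPEL5 (chromosome 2, 30146941 to 30160533), the more distant yippee paralogue and a partner of the CTLH ubiquitin ligase, overlapped between treatments. Its levels were 62.9, 59.8 and 81.6 CPM with DMSO and 79.0, 85.3 and 91.9 CPM with rapamycin. The overlap came from DMSO replicate 3, and the log2 fold change was 0.33 ± 0.12 with it and 0.48 without it.

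The FOXO genes themselves moved less. FOXO1 (chromosome 13, 40555667 to 40666641) stood at 19.7, 22.7 and 13.8 CPM with DMSO and at 24.3, 20.9 and 24.95 CPM with rapamycin, so the groups overlapped. Its log2 fold change of 0.32 ± 0.15 fell to 0.14 without DMSO replicate 3, the library with the lowest FOXO1 level. FOXO3 (chromosome 6, 108559835 to 108684774) stood at 57.7, 58.6 and 47.1 CPM with DMSO and at 62.8, 58.6 and 62.6 CPM with rapamycin. Its log2 fold change was 0.17 ± 0.11, or 0.08 without that library. FOXO3 has a near-identical copy, FOXO3B, listed at 16.5 to 28.8 CPM, and how reads were split between them is not known. FOXO4 (chromosome X, 71095851 to 71103532) stood at 26.1, 26.7 and 20.8 CPM with DMSO and at 32.4, 26.98 and 31.6 CPM with rapamycin. Its groups were separate by a narrow margin, with a log2 fold change of 0.31 ± 0.12, or 0.20 without DMSO replicate 3.

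The known FOXO targets showed small differences. CCNG2 (chromosome 4, 77157207 to 77433388), an atypical cyclin that goes with cell cycle arrest, stood at 37.6, 36.3 and 40.8 CPM with DMSO and at 43.4, 46.1 and 44.1 CPM with rapamycin. These groups did not overlap, and the log2 fold change was 0.22 ± 0.10, or 0.27 without DMSO replicate 3. CDKN1B (chromosome 12, 12685498 to 12722369), which encodes the CDK inhibitor p27, stood at 82.9, 77.0 and 92.9 CPM with DMSO and at 86.9, 96.1 and 94.8 CPM with rapamycin. The groups overlapped, with a log2 fold change of 0.14 ± 0.10, or 0.21 without that library. IRS2 (chromosome 13, 109752695 to 109786583), the insulin receptor substrate that FOXO factors raise in many tissues, stood at 20.5, 20.5 and 18.7 CPM with DMSO and at 22.1, 17.01 and 23.0 CPM with rapamycin. Its log2 fold change of 0.06 ± 0.16 was smaller than its error, and its interval at 95% ran from -0.27 to 0.38. Without the same library it was 0.015.

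**Figure D1:**
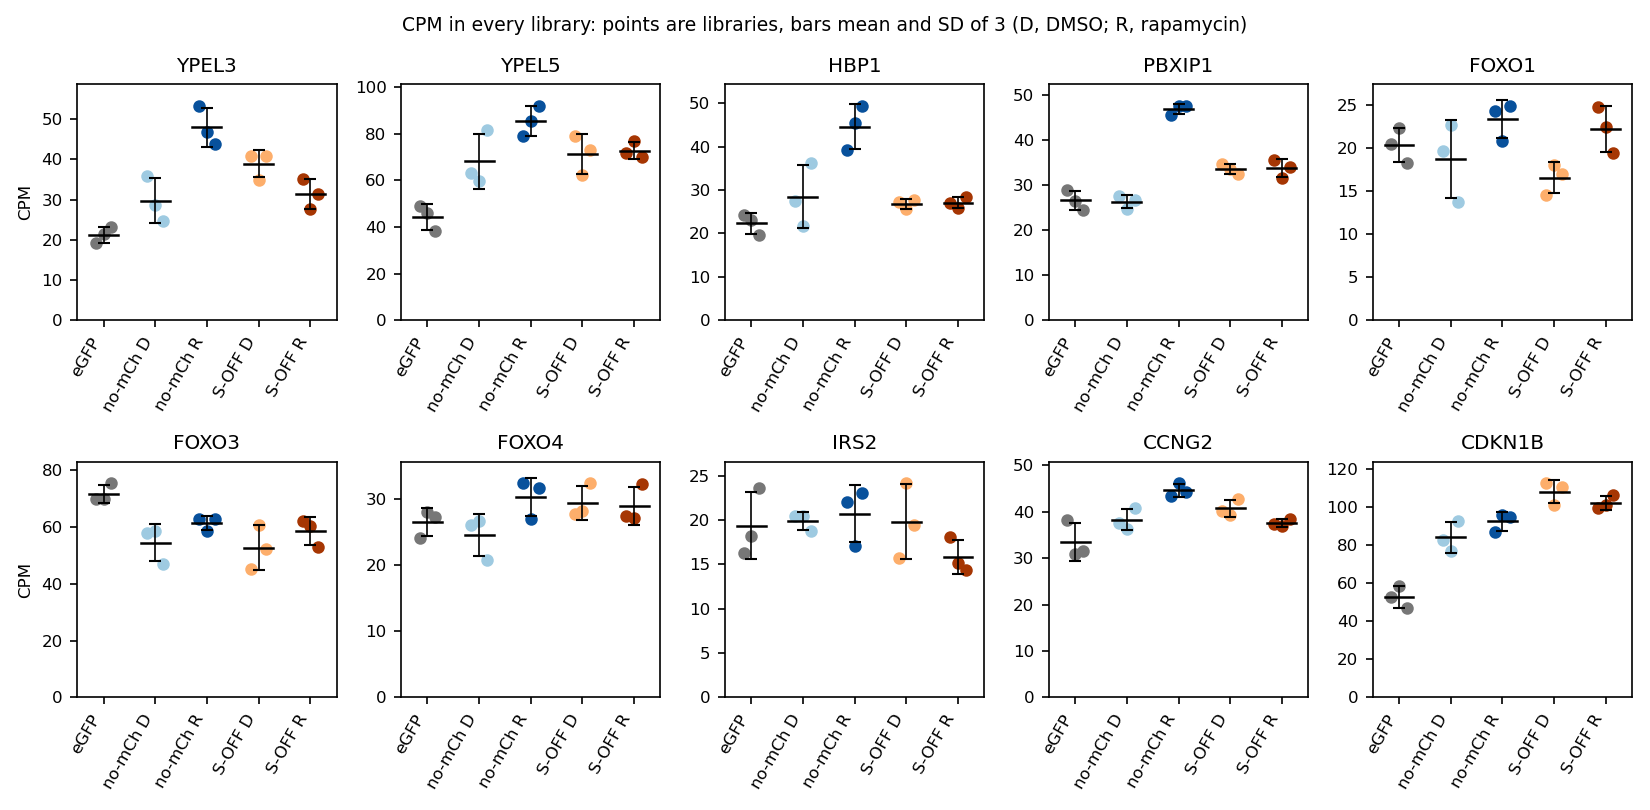
Level of each of the 10 genes in CPM (vertical axis, from 0) in the 5 groups, with 1 point for each library and black bars for the mean and SD of 3 libraries. Every gene but CDKN1B and FOXO3 has its highest mean in no-mCherry cells with rapamycin, most clearly PBXIP1, YPEL3 and HBP1. CDKN1B is highest in SPARK-OFF cells, and FOXO3 is highest in eGFP cells.

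The same drug at the same time was next compared in SPARK-OFF cells, whose libraries were not in the comparison that chose the genes. Earlier results of these data were known at that choice. The tests of the 10 genes here and against eGFP cells are therefore not blind to the data. By edgeR's quasi-likelihood test at an adjusted p under 0.05, 0 of the 10 genes were called. The same test called 0.0381% of all genes higher and 0.0924% lower. DESeq2 also called 0 of 10, and its share of all genes was not counted. An unadjusted p under 0.05 was found for 2 of 10, beside 5.48% of all genes. Of the 10 log2 fold changes 5 were above 0 and 5 below, with a median of -0.004 beside -0.00802 over all genes.

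PBXIP1 and HBP1 were close to level in SPARK-OFF cells. PBXIP1 stood at 34.7, 33.5 and 32.5 CPM with DMSO and at 35.6, 31.6 and 34.1 CPM with rapamycin. The log2 fold change was 0.01 with an interval at 95% of -0.18 to 0.20 (adjusted p = 0.994, edgeR's quasi-likelihood test). HBP1 stood at 27.1, 25.5 and 27.6 CPM with DMSO and at 27.1, 25.9 and 28.3 CPM with rapamycin, and its interval ran from -0.27 to 0.30.

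YPEL3 lay on the other side of 0. It stood at 40.8, 35.0 and 40.8 CPM with DMSO and at 35.1, 27.7 and 31.3 CPM with rapamycin, and the groups overlapped narrowly. The log2 fold change was -0.31 ± 0.13, with an unadjusted p of 0.0218 and an adjusted p of 0.769 (edgeR's quasi-likelihood test), so it did not pass. YPEL5 stood at 79.1, 62.2 and 73.0 CPM with DMSO and at 71.6, 76.8 and 70.0 CPM with rapamycin, with a log2 fold change of 0.03 ± 0.12.

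FOXO1 had the smallest p of the 10 genes in SPARK-OFF cells. Its levels were 14.6, 18.1 and 17.04 CPM with DMSO and 24.9, 22.5 and 19.5 CPM with rapamycin, so that every rapamycin library lay above every DMSO library, as in 6.19% of all genes. The log2 fold change of 0.42 ± 0.15 had an unadjusted p of 0.00979 and an adjusted p of 0.634 by edgeR's quasi-likelihood test. FOXO1 shares 1352 bases with a second annotated gene on the same strand, so part of its counts could have been lost or shared.

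CCNG2 went the other way, with 40.1, 39.3 and 42.8 CPM with DMSO and 37.4, 36.9 and 38.5 CPM with rapamycin. All 3 rapamycin libraries lay lower, as in 6.56% of all genes, and the log2 fold change of -0.12 ± 0.10 was not called (adjusted p = 0.986, edgeR's quasi-likelihood test). IRS2 had the lowest log2 fold change of the 10, -0.32 ± 0.16 (adjusted p = 0.924 by the same edgeR test), from 15.8, 24.1 and 19.5 CPM with DMSO and 18.05, 15.1 and 14.4 CPM with rapamycin. FOXO3, FOXO4 and CDKN1B had log2 fold changes of 0.15, -0.02 and -0.08, and their libraries overlapped.

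The response of SPARK-OFF cells minus that of no-mCherry cells is again a description, since no-mCherry libraries enter it. It was below 0 for 9 of the 10 genes, with a median log2 difference of -0.33 beside 0.0159 over all genes. It was lowest for YPEL3, at -1.004 ± 0.18, then PBXIP1 at -0.82 ± 0.13 and HBP1 at -0.63 ± 0.19. FOXO1 was the exception, at 0.11 ± 0.21.

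**Figure D2:**
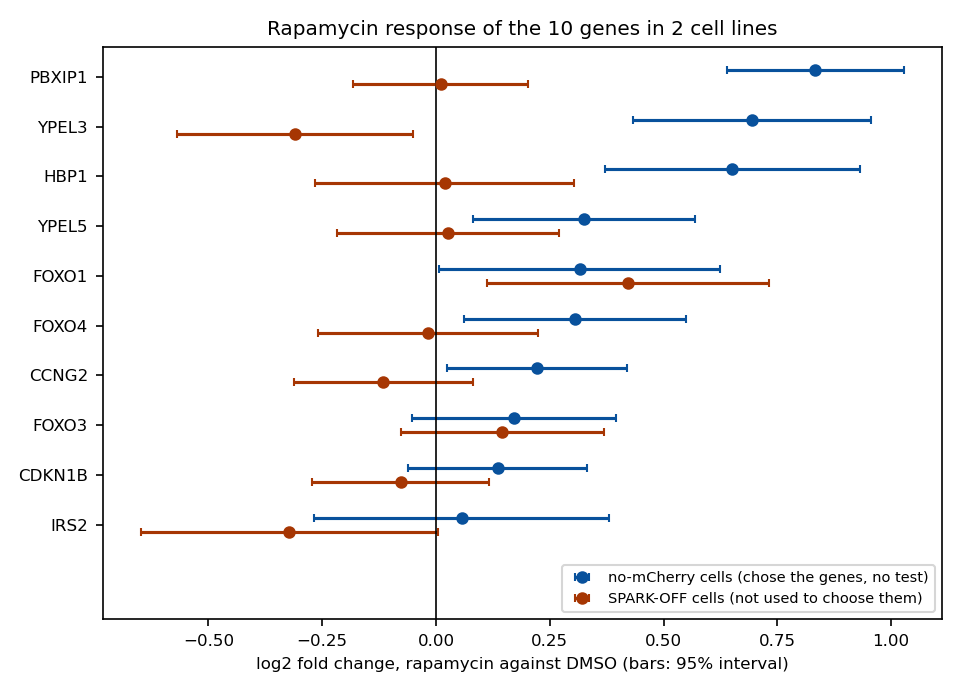
Log2 fold change of rapamycin against DMSO (horizontal axis) for the 10 genes in no-mCherry cells (blue, the comparison that chose them) and SPARK-OFF cells (brown), with intervals at 95%. In no-mCherry cells all 10 points lie above 0, while in SPARK-OFF cells 5 lie above and 5 below.

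Against eGFP cells, SPARK-OFF DMSO cells, in which the fusion is condensed, had 5 of the 10 genes higher and 1 lower by edgeR's quasi-likelihood test, beside 13% of all genes called higher and 14.1% called lower. The genes that rose were CDKN1B, YPEL3, YPEL5, PBXIP1 and CCNG2, and FOXO3 fell. HBP1, FOXO1, FOXO4 and IRS2 were not called. An unadjusted p under 0.05 was found for 6 of the 10 genes, beside 38.5% of all genes. Libraries did not overlap for 6 genes that were higher and 2 that were lower, beside 20.2% and 20.4% of all genes.

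CDKN1B had the largest of these differences. It stood at 53.0, 58.5 and 47.2 CPM in eGFP cells and at 113, 101 and 111 CPM in SPARK-OFF DMSO cells, with no overlap. The log2 fold change was 1.03 ± 0.10 (adjusted p = 4.64e-08, edgeR's quasi-likelihood test), or 2.04-fold. Its p27 protein product is controlled largely by its stability, which RNA counts do not measure.

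YPEL3 stood at 19.2, 21.4 and 23.2 CPM in eGFP cells, below every SPARK-OFF library, and the gene rose by 0.87 ± 0.13 on the log2 scale (adjusted p = 3.5e-05, edgeR). YPEL5 stood at 48.8, 46.0 and 38.1 CPM in eGFP cells and rose by 0.69 ± 0.12 (adjusted p = 0.000182, edgeR). Both yippee genes thus differed in the same direction. PBXIP1, at 28.9, 26.5 and 24.5 CPM in eGFP cells, rose by 0.33 ± 0.10 (adjusted p = 0.0115, edgeR), which passed no longer without eGFP replicate 3 (adjusted p = 0.0682). CCNG2, at 38.2, 30.9 and 31.5 CPM in eGFP cells, rose by 0.28 ± 0.10 (adjusted p = 0.0327, edgeR). That call was lost when any 1 of 4 libraries was left out (SPARK-OFF DMSO replicate 1 or 3, or eGFP replicate 2 or 3), with adjusted p values of 0.0634, 0.123, 0.136 and 0.128.

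FOXO3 was the member that fell. It stood at 69.7, 69.9 and 75.4 CPM in eGFP cells and at 45.2, 60.7 and 52.3 CPM in SPARK-OFF DMSO cells. The groups did not overlap, and the log2 fold change was -0.44 ± 0.11 (adjusted p = 0.00394, edgeR's quasi-likelihood test). For FOXO1, at 20.5, 22.3 and 18.3 CPM in eGFP cells, the log2 value was -0.30 ± 0.15 (adjusted p = 0.147, edgeR), and for FOXO4, at 24.1, 28.1 and 27.3 CPM, it was 0.15 ± 0.12. The interval at 95% of HBP1, at 24.2, 23.2 and 19.6 CPM in eGFP cells, ran from -0.03 to 0.55, and that of IRS2, at 16.3, 18.2 and 23.6 CPM, ran from -0.30 to 0.36.

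SPARK-OFF rapamycin cells, in which the fusion is diffuse, were compared with the same eGFP libraries, so the 2 comparisons are not independent. Here 4 of the 10 genes were higher and 1 lower, beside 11.4% of all genes called higher and 12.5% called lower. An unadjusted p under 0.05 was found for 5 of the 10 genes, beside 36% of all genes, and libraries did not overlap for 5 genes that were higher and 1 that was lower, beside 20.2% and 20.4%. The log2 fold change was 0.95 ± 0.10 for CDKN1B (adjusted p = 1.79e-07, edgeR's quasi-likelihood test) and 0.72 ± 0.12 for YPEL5 (adjusted p = 0.000142). YPEL3 rose by 0.56 ± 0.13 (adjusted p = 0.00299, edgeR) and PBXIP1 by 0.34 ± 0.10 (adjusted p = 0.0106, edgeR). PBXIP1 passed no longer without SPARK-OFF rapamycin replicate 1 (adjusted p = 0.0506) or eGFP replicate 3 (adjusted p = 0.0648). FOXO3 was lower by -0.30 ± 0.11 at the edge of the threshold (adjusted p = 0.0485, edgeR), a call lost when 11 of the 15 libraries were left out one at a time. CCNG2 had a log2 fold change of 0.17 ± 0.10 and was not called (adjusted p = 0.223, edgeR).

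The no-mCherry libraries are set beside these as a description. With DMSO, the log2 fold change against eGFP cells was 0.67 ± 0.10 for CDKN1B, 0.62 ± 0.12 for YPEL5 and 0.48 ± 0.13 for YPEL3, with no overlap of libraries in these 3 genes, and -0.40 ± 0.11 for FOXO3. PBXIP1 was level at -0.02 ± 0.10. With rapamycin, the same cells had log2 fold changes of 1.17 ± 0.13 for YPEL3, 0.998 ± 0.137 for HBP1, 0.95 ± 0.12 for YPEL5, 0.82 ± 0.09 for PBXIP1 and 0.81 ± 0.10 for CDKN1B. Between the DMSO groups, SPARK-OFF cells were higher than no-mCherry cells by 0.39 ± 0.13 for YPEL3, 0.36 ± 0.10 for CDKN1B and 0.35 ± 0.10 for PBXIP1.

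**Figure D3:**
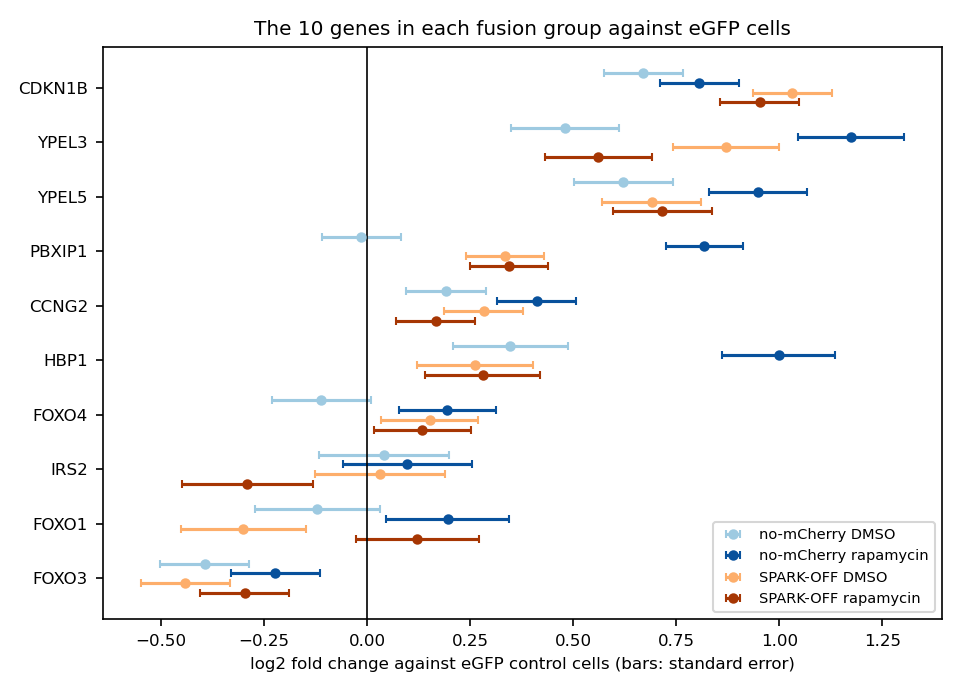
Log2 fold change of each fusion group against eGFP cells (horizontal axis) for the 10 genes, with standard errors as bars. All 4 groups share the same 3 eGFP libraries. CDKN1B, YPEL3 and YPEL5 lie above 0 and FOXO3 below 0 in all 4 groups, while HBP1 stands apart in no-mCherry cells with rapamycin, at 0.998.

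The order of the groups differed between genes. For YPEL3 the means ran from 21.3 ± 1.96 CPM (SD, n = 3) in eGFP cells, through 29.7 ± 5.63 in no-mCherry DMSO, 31.4 ± 3.67 in SPARK-OFF rapamycin and 38.9 ± 3.38 in SPARK-OFF DMSO cells, to 48.0 ± 4.82 in no-mCherry rapamycin cells. The neighbours in the middle of that order overlapped. For CDKN1B the order was 52.9 ± 5.68 CPM (SD, n = 3) in eGFP cells, 84.3 ± 8.06 in no-mCherry DMSO, 92.6 ± 4.99 in no-mCherry rapamycin, 102 ± 3.69 in SPARK-OFF rapamycin and 108 ± 6.09 in SPARK-OFF DMSO cells. The rapamycin and DMSO groups of each line overlapped. For PBXIP1 the eGFP and no-mCherry DMSO means were within their spread (26.6 ± 2.19 and 26.4 ± 1.51 CPM, SD, n = 3), as were both SPARK-OFF means (33.6 ± 1.09 and 33.8 ± 2.02), and no-mCherry rapamycin cells stood alone at 47.0 ± 1.08.

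Levels between genes were compared per length of the canonical transcript, as RPKM. In eGFP cells CDKN1B (21.9 ± 2.35 RPKM, SD, n = 3) and YPEL5 (20.7 ± 2.60) were highest and overlapped. YPEL3 followed at 13.3 ± 1.23, then FOXO3 at 9.82 ± 0.442. PBXIP1, HBP1, FOXO4 and CCNG2 lay between 8.30 and 6.13 RPKM, each overlapping the next. FOXO1 at 3.53 ± 0.346 and IRS2 at 2.37 ± 0.461 were lowest. The order depends on the length used, since over all annotated exons of the gene CDKN1B came to 5.72 RPKM.

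Likeness of pattern was measured as the root mean square distance between a gene's standardised log2 CPM over the 15 libraries and the mean profile of the 10 genes, among 10864 genes. That mean profile was lowest in eGFP cells (-1.18), then no-mCherry DMSO (-0.58), near 0 in both SPARK-OFF groups (0.13 with DMSO and 0.04 with rapamycin), and highest in no-mCherry rapamycin cells (1.60). Of the 10, PBXIP1 (0.378) and YPEL3 (0.458) were nearest to it and FOXO3 (1.433) was farthest. The 5 protein-coding genes outside the 10 with the smallest distances were RBM12B (0.406), CDKN2C (0.435), UBALD2 (0.438), ATG13 (0.445) and PABIR3 (0.449). CDKN2C, which encodes the CDK4 and CDK6 inhibitor p18, averaged 55.9 CPM in eGFP cells and 90.4 CPM in no-mCherry rapamycin cells. ATG13, a subunit of the kinase complex that starts autophagy, averaged 56.3 and 73.4 CPM in the same groups. These distances are a description of libraries that the choice of genes had used, and have no test.

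Other genes of the pathway were taken from 5 lists (103 genes, of which 96 were tested). In no-mCherry cells rapamycin raised 2 of them and lowered 0 by edgeR's quasi-likelihood test, beside 0.451% of all genes called higher and 1.17% lower, and 19 of the 96 had an unadjusted p under 0.05, beside 14.9% of all genes. DESeq2 called 6, of which 4 were higher and 2 lower. The edgeR count was 1 without no-mCherry rapamycin replicate 3 or without no-mCherry DMSO replicate 1. It was 4 without no-mCherry DMSO replicate 3, and 0 when only the 6 libraries compared were fitted. Shares of all genes were not counted for DESeq2 or for these fits. The lists were chosen with earlier results of these data known. The same no-mCherry libraries had also chosen the genes followed above. The calls and p-values of listed genes in no-mCherry cells are therefore a description, and give no independent evidence on the pathway.

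DYRK1B, a kinase known to hold cells in quiescence, stood at 9.002, 10.6 and 6.32 CPM with DMSO and at 17.6, 17.8 and 15.6 CPM with rapamycin. Its groups did not overlap, and it rose by 0.98 ± 0.15 on the log2 scale (adjusted p = 0.00142, edgeR's quasi-likelihood test). KLHL24, an adaptor of a ubiquitin ligase, stood at 24.6, 28.6 and 40.4 CPM with DMSO and at 46.2, 45.9 and 51.2 CPM with rapamycin, and rose by 0.61 ± 0.13 (adjusted p = 0.0128, edgeR). Without no-mCherry DMSO replicate 3 the log2 fold changes were 0.79 for DYRK1B and 0.84 for KLHL24, both still called. KLHL24 was no longer called without no-mCherry rapamycin replicate 3 (adjusted p = 0.0804, edgeR) or no-mCherry DMSO replicate 1 (adjusted p = 0.0634, edgeR). In SPARK-OFF cells DYRK1B had a log2 fold change of 0.34 ± 0.15 and KLHL24 one of 0.10 ± 0.13, neither called. The SPARK-OFF response minus the no-mCherry response was -0.64 ± 0.22 for DYRK1B and -0.51 ± 0.18 for KLHL24. Both genes were named for their calls in no-mCherry cells, whose libraries enter this difference. It is therefore a description, and neither response was shown to differ between the lines.

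By list, the median log2 fold change with rapamycin in no-mCherry cells was 0.11 for the 31 other FOXO targets tested (1 higher), 0.07 for the 19 other quiescence genes and G1 brakes (1 higher), 0.003 for the 24 genes of the insulin, PI3K and AKT input (none called), -0.007 for the 12 YPEL paralogues and CTLH subunits (none called) and -0.11 for the 10 targets and degraders of p27 (none called). The median over all genes was -0.000878. The YPEL paralogues tested, YPEL2 and YPEL1, had log2 fold changes of 0.47 ± 0.14 and 0.38 ± 0.26. In their list, which also holds the CTLH subunits, 5 of 12 genes lay above 0. Of the 10 targets and degraders of p27, 8 lay below 0 and 2 above, where 49.9% of all genes lay above. Nothing is read from this count. In SPARK-OFF cells 0 of the 96 genes were called by edgeR's quasi-likelihood test, 9 had an unadjusted p under 0.05 beside 5.48% of all genes, and DESeq2 called 1 higher and 1 lower. Without no-mCherry DMSO replicate 3, edgeR called 1 lower. Shares of all genes were not counted for DESeq2 or for that fit. The list medians there ran from -0.047 to 0.056.

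**Figure D4:**
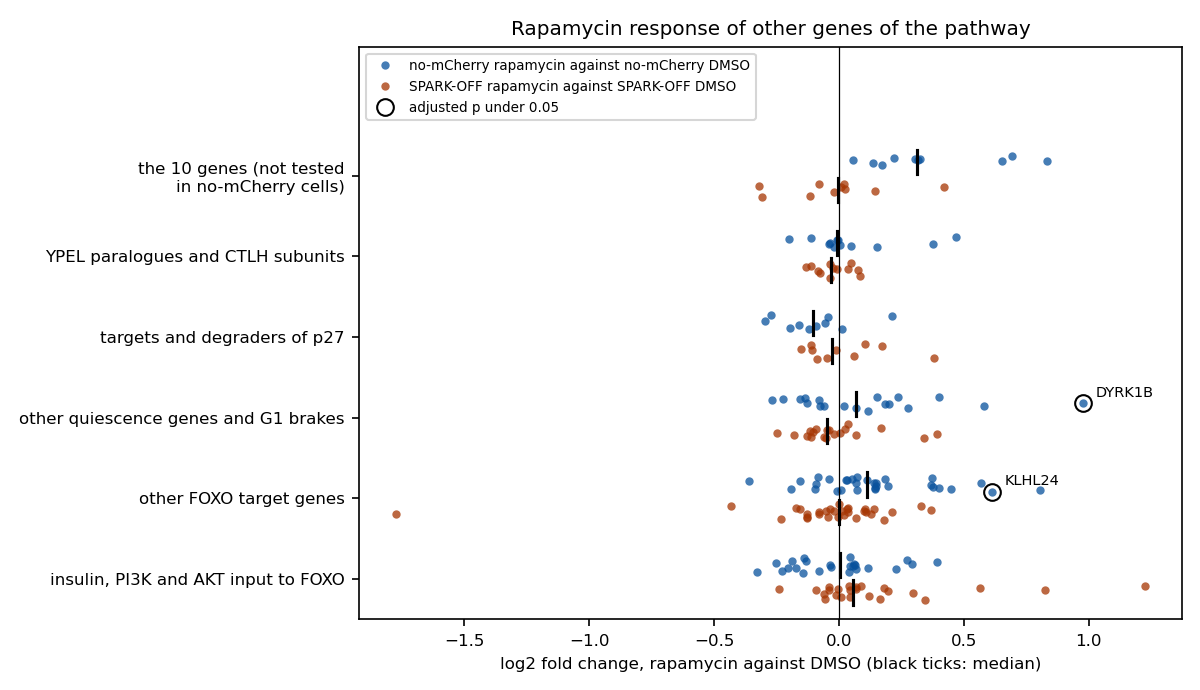
Log2 fold change of rapamycin against DMSO (horizontal axis) for the 10 genes and for 5 lists of other pathway genes, 1 point for each gene, in no-mCherry cells (blue) and SPARK-OFF cells (brown), with the median as a black tick and called genes circled. DYRK1B (0.98) and KLHL24 (0.61) are the circled genes, both in no-mCherry cells, the comparison that chose the 10 genes.

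Against eGFP cells, far more genes differed, in the whole table as well as in the lists. The lists were chosen with earlier results of these data known. The counts and p-values of listed genes against eGFP cells are therefore also a description. In SPARK-OFF DMSO cells 27 of the 96 genes were higher and 15 lower by edgeR's quasi-likelihood test, beside 13% and 14.1% of all genes. Of the other FOXO targets 12 of 31 were higher and 3 lower. GADD45B, a stress sensor that slows the cell cycle, stood at 12.6, 11.7 and 12.8 CPM in eGFP cells and at 96.1, 81.7 and 91.0 CPM in SPARK-OFF DMSO cells, with a log2 fold change of 2.86 ± 0.11 (adjusted p = 6.05e-15, edgeR). CITED2, a coregulator bound by the CBP and p300 acetyltransferases, averaged 50.1 ± 0.547 and 172 ± 4.70 CPM (SD, n = 3), and rose by 1.78 ± 0.09. CDKN2B, which encodes the CDK inhibitor p15, rose by 1.17 ± 0.13, and SESN3, a sestrin that restrains mTORC1, fell by 0.87 ± 0.10 on the log2 scale (adjusted p = 9.69e-07 and 1.93e-06, edgeR).

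Of the other quiescence genes and G1 brakes 7 of 19 were higher and 5 lower. CDKN1A, which encodes p21, the close relative of p27, went the opposite way to CDKN1B. It stood at 98.8, 102 and 98.7 CPM in eGFP cells and at 61.4, 55.2 and 56.1 CPM in SPARK-OFF DMSO cells, and its log2 fold change was -0.79 ± 0.08 (adjusted p = 3.72e-07, edgeR's quasi-likelihood test). DYRK1A rose by 0.62 ± 0.09 (adjusted p = 3.94e-05, edgeR). LIN54, a DNA-binding subunit of the DREAM complex that silences cell cycle genes, rose by 0.58 ± 0.10, and FBXW7, which marks cyclin E for breakdown, rose by 0.51 ± 0.09 (adjusted p = 0.000213 and 0.000258, edgeR).

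Of the 10 targets and degraders of p27, 1 was higher and 2 lower, beside 13% and 14.1% of all genes, and the others were not called. CCNE2 rose by a log2 fold change of 0.54 ± 0.13, and CDK6 and CCND1 fell, with -0.75 ± 0.12 and -0.81 ± 0.17 (adjusted p = 0.00355, 0.000105 and 0.00127, edgeR's quasi-likelihood test). Of the CTLH subunits, which form the ligase that YPEL5 binds, GID8, RANBP9 and WDR26 rose by 0.40 ± 0.10, 0.32 ± 0.09 and 0.29 ± 0.09, and RMND5B fell by 0.30 ± 0.09 on the log2 scale. Counting both kinds of gene in that list, 4 of 12 were higher and 1 lower.

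The input to FOXO had 3 of 24 genes higher and 4 lower, shares near the 13% and 14.1% of all genes. IRS4, the insulin receptor substrate most abundant in HEK293 cells, stood at 1971, 1942 and 2092 CPM in eGFP cells and at 506, 684 and 606 CPM in SPARK-OFF DMSO cells. Its log2 fold change was -1.74 ± 0.10 (adjusted p = 1.17e-11, edgeR's quasi-likelihood test), and it averaged 1360 ± 61.5 CPM in no-mCherry DMSO cells. IRS1 fell by 0.64 ± 0.14 on the log2 scale (adjusted p = 0.00198, edgeR), while the third substrate, IRS2, had a log2 fold change of 0.03 ± 0.16. GRB10, an adaptor that dampens insulin receptor signalling, fell by 0.71 ± 0.13, and SGK1, a kinase that phosphorylates FOXO3, rose by 1.115 ± 0.177 (adjusted p = 0.00022 and 6.87e-05, edgeR).

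In SPARK-OFF rapamycin cells against the same eGFP libraries, 25 of the 96 listed genes were higher and 13 lower, beside 11.4% and 12.5% of all genes. GADD45B and CITED2 had log2 fold changes of 2.43 ± 0.11 and 1.81 ± 0.09, CDKN2B 1.13 ± 0.13 and GADD45A 0.71 ± 0.09. CDKN1A had -0.83 ± 0.08 and DYRK1A 0.78 ± 0.09. RBL1, the pocket protein p107, rose by 0.48 ± 0.10 (adjusted p = 0.0017, edgeR's quasi-likelihood test), and SKP2, the ligase subunit that marks p27 for breakdown, fell by 0.27 ± 0.09 on the log2 scale (adjusted p = 0.0232, edgeR). IRS4 had -1.40 ± 0.10, and PHLPP2, a phosphatase that removes an activating phosphate from AKT, rose by 0.41 ± 0.12 (adjusted p = 0.011, edgeR).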

How the data were processed

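PolyA RNA of 15 HEK293T libraries was sequenced, and the authors deposited 1 table of raw counts per gene with no normalization. Per the paper's methods, reads were trimmed with fastp and mapped to hg38 with STAR at default settings. The submitters' processing notes also name FastQC, HTSeq and edgeR, and the versions, the annotation and the strand setting were not given in the sources used here. Of 61533 identifiers 61369 matched GENCODE v44 without the version number, which gave symbols and hg38 coordinates.

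The analysis used edgeR 4.0.16, limma 3.58.1 and R 4.3.3. A filter on low counts (filterByExpr) left 18391 genes, which were scaled by TMM (factors of 0.901 to 1.05), and fitted by 1 quasi-likelihood model over all libraries without covariates. Benjamini-Hochberg adjustment ran over the whole set of tested genes, and calls were made at an adjusted p under 0.05. Errors after a log2 fold change are Wald standard errors, and values after CPM or RPKM means are SDs. No pair of libraries agreed within sampling noise. The steps were tested on simulated counts before use. DESeq2 1.42.0, other scalings, no filter, the study's thresholds, fits of only the libraries compared, a replicate block and leaving out each library were alternatives.

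The 10 genes, the 5 lists and the naming rule were chosen with earlier results of these data known. All 10 genes are named, with up to 4 called genes for each list and tested comparison at 5 CPM or more in the higher group, ranked by adjusted p, and the 5 genes of most similar pattern. SOD2, PIK3R2, TNFSF10, FASLG, TRIM63, G6PC1 and YPEL4 were listed and not tested. Promoter sequences are from RefSeq on GRCh38.p14.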

Additional observations from a re-analysis of the deposited data

Results flagged for a closer look

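For 3 genes every rapamycin library lay above the DMSO mean in no-mCherry cells and every rapamycin library lay below the DMSO mean in SPARK-OFF cells. The SPARK-OFF response minus the no-mCherry response was -1.004 on the log2 scale for YPEL3, -0.337 for CCNG2 and -0.214 for CDKN1B. The difference was not tested, because no-mCherry libraries chose these genes. The share of all genes with this pattern was not counted, so nothing is read from the 3.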

How the results depend on the processing

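All 10 genes stayed uncalled for rapamycin in SPARK-OFF cells under every alternative run, and the median log2 fold change in no-mCherry cells ranged from 0.242 to 0.356 when 1 library was left out. With the study's thresholds (FDR under 0.1, P under 0.01 and a log2 change of 0.58 or more either way), 3 of the 10 genes were called in SPARK-OFF DMSO and 2 in SPARK-OFF rapamycin cells against eGFP cells. Leaving out 1 library gave 4 to 6 and 3 to 5 calls in these comparisons, and 1 to 4 and 0 to 1 calls among listed genes with rapamycin in no-mCherry and SPARK-OFF cells. Fitting only the libraries compared gave 0 and 1 such calls, and DESeq2 gave 6 and 2. Shares of all genes were not counted under these alternatives, so their counts cannot be set against the whole table. FOXO3 in SPARK-OFF rapamycin against eGFP cells missed the threshold with other scalings (adjusted p = 0.0526 and 0.0673, edgeR) and with no filter (0.0795), which also ended the call of CCNG2 in SPARK-OFF DMSO cells (0.102). The causes were not tested. No called value changed its direction.

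No pairing by replicate number was seen, since deviations of libraries with the same number had correlations between -0.098 and 0.067. Those with other numbers reached 0.142. These correlations cannot exclude pairing, and the labels do not say whether the numbers pair libraries. With the replicate block, calls among the 10 genes were 0 for rapamycin in SPARK-OFF cells, 6 for SPARK-OFF DMSO and 4 for SPARK-OFF rapamycin against eGFP cells, where FOXO3 missed the threshold (-0.299, adjusted p = 0.057, edgeR). A block fit of only the libraries compared, added after the data were seen, gave 0, 8 and 4 calls. For neither block fit was the share of all genes counted. With 3 libraries a group, an interval that includes 0 does not show that a gene was unchanged.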
